A study of Xenopus laevis with 30 samples.

Results

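Gene expression in the hindbrain was compared with that in the spinal cord of Xenopus laevis tadpoles at Nieuwkoop and Faber (NF) stage 49. The comparison used 4 of the 30 RNA libraries of the series, chosen by their labels: 2 stage 49 hindbrain libraries (HB49) and 2 stage 49 spinal cord libraries (SC49). It was read beside 3 hindbrain libraries (HB46) and 3 spinal cord libraries (SC46) from stage 46, a slightly younger tadpole stage that also precedes metamorphosis. All 10 were total RNA of dissected tissue, with no treatment or genetic change given in the labels. The study's methods describe albino tadpoles of both sexes and a hindbrain dissection that took in the rhombic lip, and call the samples of a region biological replicates, but for stage 46 and not for stage 49. The p-values of stage 49 therefore measure the spread between its libraries, which may be technical. For 32128 of 32382 genes this spread was shared over genes, rather than taken from the gene's own 4 libraries.

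The hindbrain lies between the midbrain and the spinal cord and holds the cerebellar primordium, the cranial motor and reticular nuclei and the noradrenergic and serotonergic cell groups. The spinal cord continues from it, with motor neurons that drive the axial and later the limb muscles, relay neurons for skin and muscle input, and neurons that contact the cerebrospinal fluid along the central canal. Positions along this axis are marked by the hox genes, transcription factors in 4 clusters whose paralogue groups of low number begin to be expressed in the hindbrain and those of higher number progressively further back in the cord. At tadpole stages the cord lies on the notochord and is flanked by ganglia, meninges, cartilage and muscle, any of which can stay attached to a dissected piece. X. laevis carries most genes as a pair of copies from its ancestral genome duplication, named .L and .S.

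The stage 49 libraries were shallow and held reads on nearly every gene. They had 1762544 to 3303306 counts, against 3304181 to 9665558 in HB46 and SC46. At a common depth of 1762544 counts, 44809 to 46638 genes had at least 1 count in HB49 and SC49, against 28110 to 31837 in replicates 1 and 2 of HB46 and SC46. Replicates 3 of HB46 and SC46 stood with the stage 49 libraries, at 44073 and 42850 genes. On 7289 genes with at most 2 counts in all the midbrain libraries of stages 44, 46, 55 and 61 together, 1.05% and 1.35% of the counts fell in HB49 and 1.87% and 0.939% in SC49, against 0.0149% to 0.101% in replicates 1 and 2 of stage 46 and 0.681% and 0.541% in HB46 and SC46 replicate 3. SC49 replicate 1 had both the fewest counts and the highest of these shares. The part of these reads in the differences at stage 49 was not tested.

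Markers of the dissected regions were weakly separated at stage 49. Of 15 hindbrain marker genes in the file, 14 were tested at stage 49, where 10 had a positive log2 fold change of hindbrain over spinal cord and 1 passed an adjusted p of 0.05, with a median of 0.18. At stage 46 the median of the 14 tested was 1.60, and 6 passed in the hindbrain's favour and 3 in the cord's. The gene that passed at stage 49 was en2.S, an engrailed transcription factor of the midbrain-hindbrain boundary. It stood at 23.0 and 17.8 CPM (counts scaled to the size of the library) in HB49 and at 5.15 and 8.51 CPM in SC49. egr2.L and mafb.L, transcription factors of the rhombomeres, did not separate the regions at stage 49: egr2.L had 5.27 and 4.71 CPM in HB49 against 6.25 and 6.39 CPM in SC49, and mafb.L had 16.9 and 12.46 CPM in HB49 against 9.92 and 14.1 CPM in SC49. mnx1.L, a motor neuron transcription factor, had 4.14 and 6.06 CPM in HB49 against 7.72 and 8.51 CPM in SC49, while at stage 46 it had 0, 0.25 and 4.47 CPM in HB46 against 40.6, 32.8 and 22.1 CPM in SC46.

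At stage 49, 41 of 32382 genes tested were called (0.127%), 13 higher and 28 lower in the hindbrain than in the spinal cord. A gene was called at a Benjamini-Hochberg adjusted p under 0.05 in edgeR's quasi-likelihood test together with a log2 fold change over 2 in size, the thresholds of the study. By the adjusted p alone 54 were higher (0.167%) and 55 lower (0.17%) in hindbrain, and 1515 had an unadjusted p under 0.05. In all 41 called genes both hindbrain libraries lay on one side of both spinal cord libraries, which 28.9% of all tested genes also did. At stage 46 the same test called 394 of 26392 genes (1.49%), 127 higher and 267 lower in hindbrain, and by the adjusted p alone 2.11% were higher and 3.36% lower. The stage 49 count turned on single libraries: it was 4 without HB49 replicate 1, 8 without HB49 replicate 2, 71 without SC49 replicate 1 and 91 without SC49 replicate 2. It was also 4 when the other 4 stage 49 libraries, or HB46 and SC46, shared the estimate of the spread (lcat.L, LOC108703573 and Xelaev18000415m among them in both). No called gene turned its direction in any of these fits, and cxcl14.L, lcat.L and LOC108701977 were called in each of the 4 that left out 1 library.

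**Figure D1:**
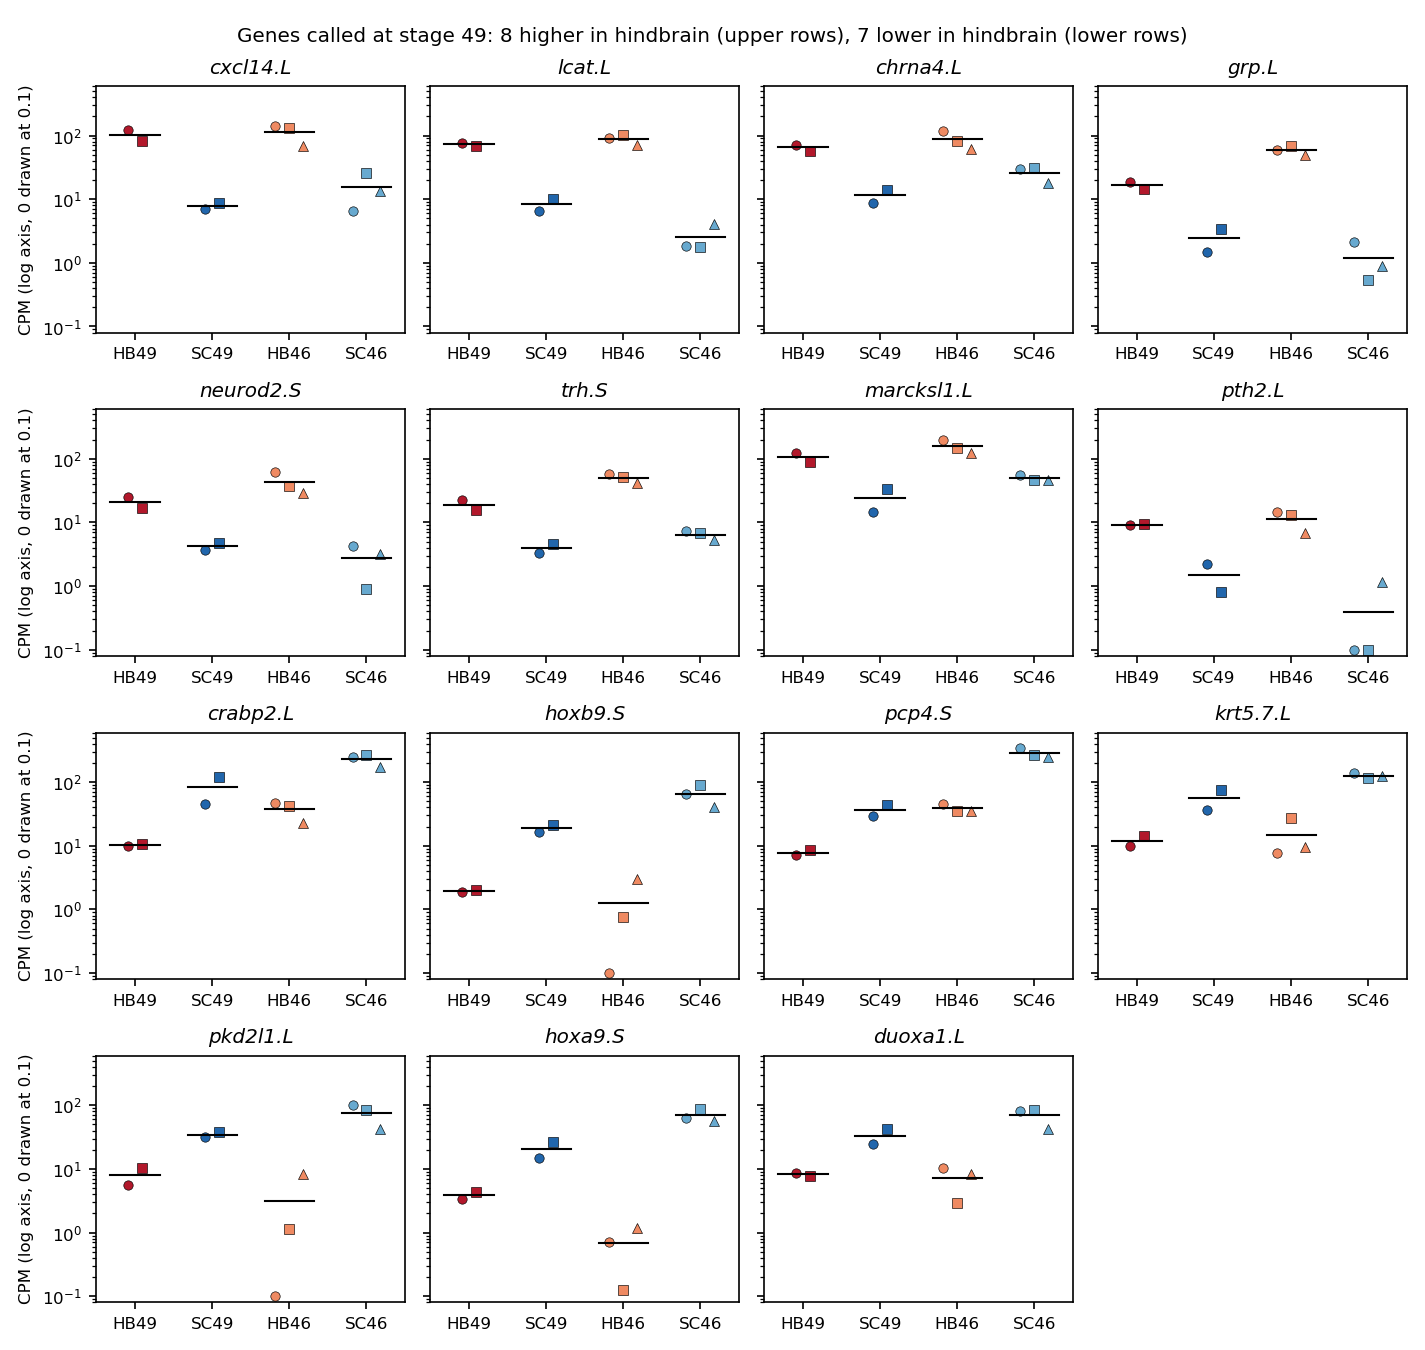
CPM (log axis, 0 drawn at 0.1) of leading genes of stage 49, 8 called higher and 7 called lower in hindbrain, in HB49, SC49, HB46 and SC46. Each point is a library (circle, square and triangle for replicates 1, 2 and 3) and each bar a group mean; in every panel the 2 HB49 points lie clear of the 2 SC49 points, and for the 7 lower genes every SC46 point lies above both SC49 points.

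Among the 13 genes called higher in hindbrain at stage 49, cxcl14.L, which encodes a chemokine, led. It had 122 and 81.8 CPM in HB49, against 6.98 and 8.78 CPM in SC49. Both hindbrain libraries stood far above both cord libraries, with a log2 fold change of 3.62 (SE 0.48, edgeR adjusted p = 9.04e-10). lcat.L, for the enzyme that esterifies cholesterol on lipoproteins, had 76.8 and 68.0 CPM in HB49, against 6.62 and 10.1 CPM in SC49 (log2 fold change 3.03, SE 0.42, edgeR adjusted p = 2.40e-09). Neither gene's groups overlapped, at stage 49 or at stage 46. chrna4.L, a nicotinic acetylcholine receptor subunit, had 71.9 and 57.9 CPM in HB49, against 8.82 and 14.1 CPM in SC49 (2.42, SE 0.39).

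Transmitter peptides and a neuronal differentiation factor made up much of the rest. grp.L, the precursor of gastrin-releasing peptide, had 18.4 and 14.5 CPM in HB49, against 1.47 and 3.46 CPM in SC49, a log2 fold change of 2.60 (SE 0.49). trh.S, the precursor of thyrotropin-releasing hormone, had 22.2 and 15.8 CPM in HB49, against 3.31 and 4.52 CPM in SC49 (2.18, SE 0.44). pth2.L, which encodes a ligand of the parathyroid hormone 2 receptor, had 9.03 and 9.43 CPM in HB49, against 2.21 and 0.798 CPM in SC49 (2.61, SE 0.61), and was called in only 1 of the 4 fits that left out a library. These 3 peptide genes were low in the cord at stage 46 too, pth2.L being at 0 in SC46 replicates 1 and 2. The other copies of the first 2, grp.S (log2 fold change 0.94) and trh.L (1.29), had the same direction at stage 49 but were not called. neurod2.S, a basic helix-loop-helix factor of differentiating neurons, had 25.2 and 16.8 CPM in HB49, against 3.68 and 4.79 CPM in SC49 (2.22, SE 0.42). Its other copy is listed in the file as LOC108701977, which RefSeq names neurod2.L, and had 32.7 and 25.3 CPM in HB49, against 4.78 and 2.66 CPM in SC49 (2.93, SE 0.41). marcksl1.L, an actin-binding substrate of protein kinase C, had 123 and 87.5 CPM in HB49, against 14.3 and 33.5 CPM in SC49 (2.07, SE 0.47).

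The remaining genes of this direction were picked out here after their values were seen. LOC108702360, which RefSeq names pnmt.S and which encodes the enzyme that makes adrenaline from noradrenaline, had 15.8 and 8.75 CPM in HB49, against 2.21 and 3.19 CPM in SC49 (log2 fold change 2.08, SE 0.51). In HB46 it had 25.6, 20.9 and 13.4 CPM, against 0, 0.179 and 1.47 CPM in SC46, and the groups overlapped at neither stage. sostdc1.L, a secreted antagonist of BMP and Wnt signals, had 12.8 and 8.42 CPM in HB49, against 3.31 and 1.60 CPM in SC49 (2.08, SE 0.54). higd1b.L (2.05) and LOC108715356 (2.56) completed the 13. Of the 14 called genes that the file lists under a LOC or Xelaev name, 6 matched another symbol in RefSeq, 2 of them higher and 4 lower in hindbrain, and 8 had none.

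Genes of retinoid handling, grouped here after their values were seen and so with no claim for the group, were among the 28 called lower in hindbrain. crabp2.L, which binds retinoic acid in the cell, had 9.78 and 10.8 CPM in HB49, against 44.5 and 120 CPM in SC49 (log2 fold change -3.05, SE 0.45). LOC108700362, named crabp2.S in RefSeq, had 13.2 and 8.42 CPM in HB49, against 54.4 and 143 CPM in SC49 (-3.25, SE 0.48). In both copies SC49 replicate 2 stood more than 2 times above SC49 replicate 1, and both stood above HB49. stra6.L, a membrane receptor for retinol uptake, had 13.2 and 12.46 CPM in HB49, against 46.3 and 54.3 CPM in SC49 (-2.03, SE 0.37). aldh1a2.L, the main enzyme of retinoic acid synthesis in the embryo, passed the adjusted p but not the fold: it had 15.8 and 21.9 CPM in HB49, against 51.8 and 76.9 CPM in SC49, a log2 fold change of -1.82 (SE 0.40, edgeR adjusted p = 0.00324). Reads of the .L and .S copies can be shared, and how reads mapping to both were counted is not given in the sources used here.

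pkd2l1.L, a cation channel known from cerebrospinal fluid contacting neurons, had 5.64 and 10.4 CPM in HB49, against 31.2 and 37.8 CPM in SC49 (log2 fold change -2.14, SE 0.37). It is one of the few genes called at stage 49 and not at stage 46, where its levels were 0, 1.13 and 8.34 CPM in HB46 and 101, 85.4 and 43.0 CPM in SC46 and the adjusted p was 0.118. The list of these neurons' genes did not share its direction. Of 22 tested at stage 49, 12 had positive values (median 0.13), and pkd2l1.L alone was called, against 0.0865% of all genes called lower. The list summed to 696 and 651 CPM in HB49 against 502 and 469 CPM in SC49. pcp4.S, a small regulator of calmodulin, had 7.15 and 8.42 CPM in HB49, against 29.0 and 42.8 CPM in SC49 (-2.26, SE 0.37). duoxa1.L, a maturation factor of dual oxidase, had 8.65 and 7.74 CPM in HB49, against 24.3 and 42.0 CPM in SC49 (-2.08, SE 0.37). pdyn.S, the precursor of the dynorphin opioid peptides, had 3.76 and 5.72 CPM in HB49, against 14.7 and 25.3 CPM in SC49 (-2.12, SE 0.42). Its other copy, pdyn.L, was not called at stage 49 (-1.06). Outside the rule for named genes, LOC108707320 (npr3.S in RefSeq, a natriuretic peptide receptor) had 11.3 and 13.1 CPM in HB49, against 65.1 and 129 CPM in SC49 (-3.04, SE 0.48). fst.L, the activin antagonist follistatin, had 4.89 and 3.70 CPM in HB49, against 16.9 and 19.4 CPM in SC49 (-2.14, SE 0.44). The lowest fold change of all belonged to LOC108703573, which no source used here names, at 9.41 and 9.76 CPM in HB49, against 194 and 320 CPM in SC49 (-4.79, SE 0.71). Xelaev18000415m followed at -4.70, with 6.02 and 8.75 CPM in HB49, against 136 and 238 CPM in SC49.

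Hox genes of groups 4 to 13 lay on the cord's side at stage 49, with smaller values than at stage 46. None of the 13 genes of groups 1 to 3 tested was called, and their median log2 fold change was -0.38, against -0.04 over all genes tested. All 16 genes of groups 4 to 8 had negative values, with a median of -1.02, and 2 were called lower in hindbrain (0.0865% of all genes tested were called in that direction). All 17 genes of groups 9 to 13 were negative as well, with a median of -1.09 and 2 called. At stage 46 the medians were -0.47, -1.89 and -5.12 for the 3 sets, with 0 of 14, 4 of 16 and 8 of 20 called lower, and 1.01% of all genes tested called in that direction. Without both replicates 3, 8 of 16 and 20 of 20 genes of the higher sets were called at stage 46, where 555 of all 25082 genes tested were called lower in hindbrain.

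hoxb9.S had 1.88 and 2.02 CPM in HB49, against 16.5 and 21.0 CPM in SC49 (log2 fold change -3.30, SE 0.50). LOC108700809, which RefSeq names hoxb9.L and which the counts above leave out, had 2.63 and 2.69 CPM in HB49, against 15.1 and 19.96 CPM in SC49 (-2.76, SE 0.48). hoxa9.S had 3.39 and 4.38 CPM in HB49, against 14.7 and 26.3 CPM in SC49 (-2.45, SE 0.43). In these 3 genes of group 9 both cord libraries stood above both hindbrain libraries. hoxb6.S had 3.39 and 1.68 CPM in HB49, against 12.13 and 20.5 CPM in SC49 (-2.76, SE 0.49). hoxb7.L had 1.51 and 2.02 CPM in HB49, against 9.56 and 12.24 CPM in SC49 (-2.66, SE 0.57). All 5 were called neither without HB49 replicate 1 nor, except hoxb9.S, without HB49 replicate 2. By paralogue group the stage 49 medians were -0.54, -0.11, -0.03, -0.61, -0.87, -2.14, -1.48, -1.17, -1.82, -0.95, -0.68, -1.31 and -1.31 for groups 1 to 13, so the most negative values stood at groups 6 and 9.

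**Figure D2:**
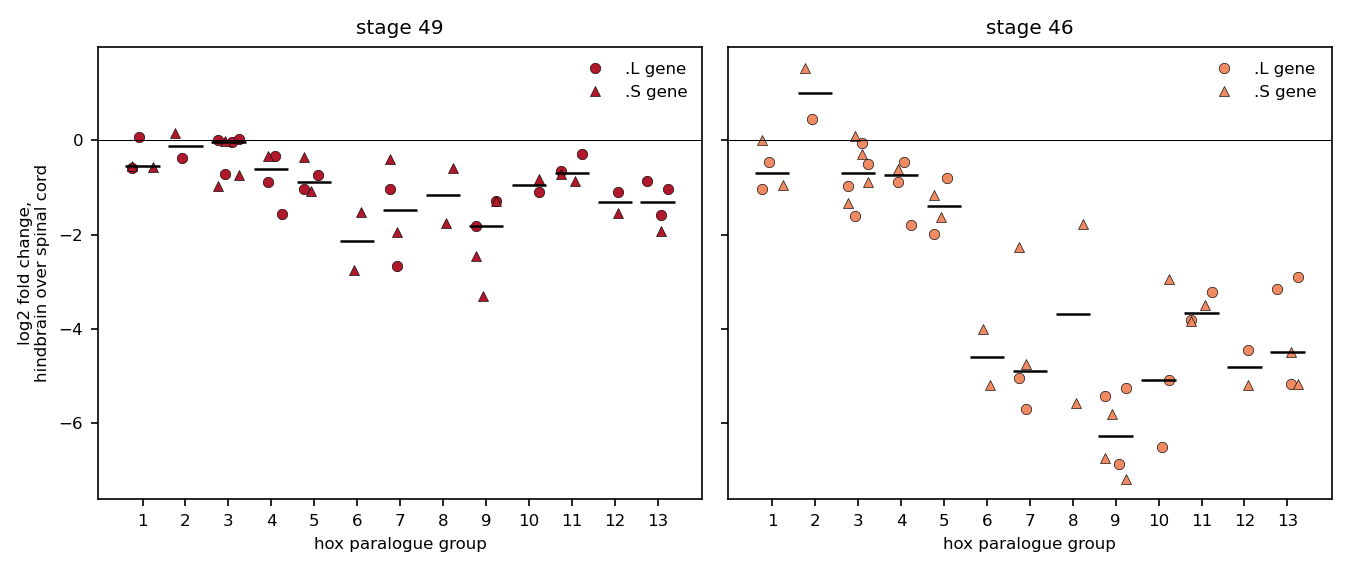
Log2 fold change of hindbrain over spinal cord for each hox gene tested, by paralogue group (x axis), at stage 49 (left) and stage 46 (right); circles are .L genes, triangles .S genes and bars group medians. Genes of groups 1 to 3 lie on both sides of 0 at stage 49, while every gene of groups 4 to 13 lies below it, with group 9 at a median of -1.82 at stage 49 and -6.28 at stage 46.

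The posterior hox genes were also read in the forebrain, which lies outside their known domain of expression. Summed over the 21 genes of groups 9 to 13, unscaled levels were 123 and 148 CPM in HB49, against 380 and 290 CPM in SC49. The stage 49 forebrain libraries had 112 and 132 CPM of the same genes, and the HB49 and forebrain values overlapped. Replicates 1 and 2 of HB46 had 2.70 and 0.931 CPM and replicate 3 had 67.8 CPM, against 421, 449 and 389 CPM in SC46. The ratio of mean scaled sums, hindbrain over cord, was 0.432 at stage 49 and 0.0435 at stage 46.

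Genes of the hindbrain's own regions were read beside all genes tested at stage 49, of which 0.127% were called. Genes given below that passed the adjusted p alone, and t.L, col1a1.L, mpz.S and cdk1.L, were picked out after their values were seen. Of 65 genes of the midbrain-hindbrain boundary and cerebellum tested, 55 had positive values with a median of 0.45, none was called higher and 1, pcp4.S, was called lower. By the adjusted p alone 5 of the 65 were higher in hindbrain, against 0.167% of all genes tested. At stage 46 the median was 1.14, with 12 of 63 called higher (0.481% of all genes tested). At stage 49 the adjusted p alone was passed by cbln1.L, a cerebellin that organises granule cell synapses, at 45.2 and 31.0 CPM in HB49 against 5.51 and 14.9 CPM in SC49 (log2 fold change 1.80, SE 0.35). en1.L, an engrailed factor, had 24.5 and 21.6 CPM in HB49 against 5.15 and 7.18 CPM in SC49 (1.81, SE 0.39). None of the 43 rhombomere genes or 28 aminergic genes tested was called, a count that leaves out LOC108702360 (pnmt.S in RefSeq), called higher in hindbrain.

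Among 41 neuropeptide genes tested, 2 were called higher (0.0401% of all genes tested were called in that direction) and 1 lower: grp.L, trh.S and pdyn.S, given above. The list's median was 0.30. At stage 46, 10 of 45 were called higher and 6 lower, against 0.481% and 1.01% of all genes tested. npy.L, neuropeptide Y, passed the adjusted p alone at stage 49, with 70.0 and 55.6 CPM in HB49 against 17.3 and 19.4 CPM in SC49 (log2 fold change 1.71, SE 0.39, edgeR adjusted p = 0.00659). sst.S, somatostatin, did likewise, at 85.8 and 81.8 CPM in HB49 against 18.4 and 24.2 CPM in SC49 (1.91, SE 0.43, edgeR adjusted p = 0.00626). At stage 46 sst.S had an adjusted p of 0.1101, with 259, 181 and 170 CPM in HB46 against 152, 102 and 104 CPM in SC46. npy.L at stage 46 had 107, 98.8 and 84.9 CPM in HB46 against 5.096, 8.26 and 8.53 CPM in SC46.

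Motor neuron and cholinergic genes were also counted at stage 49, where 0.127% of all genes tested were called. None of the 44 motor neuron genes tested was called (median -0.39), against 12 of 44 called lower and 3 higher at stage 46 (median -1.27), where 1.01% and 0.481% of all genes tested were called in these directions. In the fits that left out 1 library, the stage 49 median of the motor neuron genes lay between -0.42 and -0.23. slc18a3.L and slc18a3.S, copies of the vesicular acetylcholine transporter, passed the adjusted p alone. slc18a3.S had 13.9 and 7.07 CPM in HB49, against 17.3 and 34.1 CPM in SC49 (log2 fold change -1.37, SE 0.36), and at stage 46 it had 43.8, 44.5 and 26.2 CPM in HB46 against 141, 251 and 139 CPM in SC46. ache.L, acetylcholinesterase, overlapped at stage 49, with 261 and 124 CPM in HB49 against 174 and 307 CPM in SC49 (-0.38). At stage 46 it had 443, 369 and 290 CPM in HB46 against 2430, 5065 and 1860 CPM in SC46 (-2.89, SE 0.38). Of 20 cholinergic genes tested at stage 49, chrna4.L alone was called, in the hindbrain's favour (0.0401% of all genes tested were called in that direction).

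Genes of transmission in general lay to the hindbrain's side at stage 49 without being called, where 0.127% of all genes tested were called. Of 49 synaptic vesicle and release genes tested, 45 had positive values (median 0.51), against 17 of 48 at stage 46 (median -0.19). Their stage 49 median was 0.30 without HB49 replicate 1, 0.77 without HB49 replicate 2, 0.30 without SC49 replicate 1 and 0.92 without SC49 replicate 2. cplx1.L, a complexin, had 240 and 179 CPM in HB49 against 125 and 226 CPM in SC49, an overlap. The summed level of the 50 genes in the file was 4873 and 3632 CPM in HB49 against 1924 and 3392 CPM in SC49, and 10403, 10474 and 6664 CPM in HB46 against 13984, 17551 and 9876 CPM in SC46. Glutamate genes (35 of 41 positive, median 0.43) and GABA and glycine genes (29 of 39 positive, median 0.50) leaned the same way. The glutamate genes' median was 0.24 without HB49 replicate 1, and that of the GABA and glycine genes was 0.77 without SC49 replicate 2. gabrb2.L, a GABA receptor subunit, passed the adjusted p alone at 116 and 79.1 CPM in HB49 against 19.5 and 30.6 CPM in SC49 (log2 fold change 1.89, SE 0.46). gabrd.L, another subunit, had 39.9 and 25.9 CPM in HB49 against 12.13 and 5.85 CPM in SC49 (1.84, SE 0.36).

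Summed levels of genes of 5 tissues around the cord stood higher in the cord at stage 49, by smaller ratios than at stage 46. Summed over 37 notochord genes, the level was 624 and 635 CPM in HB49, against 983 and 1415 CPM in SC49. The mean ratio of hindbrain over cord was 0.525 at stage 49 and 0.150 at stage 46, where HB46 had 882, 1046 and 790 CPM against 5570, 7175 and 5362 CPM in SC46. Much of the stage 49 difference in the notochord sum came from the keratins krt8.L, krt8.S and krt18.L, given below. Their means were 202, 138 and 80.1 CPM in SC49 against 34.5, 29.7 and 16.7 CPM in HB49. Cartilage genes summed to 573 and 645 CPM in HB49 against 775 and 819 CPM in SC49 (ratio 0.764), and their stage 46 ratio was 0.209. Fibroblast and meninges genes gave 1858 and 1924 CPM in HB49 against 2311 and 3324 CPM in SC49 (0.671), and 0.473 at stage 46. Epidermis genes gave 827 and 948 CPM in HB49 against 1114 and 1425 CPM in SC49 (0.699), and 0.368 at stage 46. Sensory neuron and ganglion genes gave 1082 and 920 CPM in HB49 against 1200 and 1791 CPM in SC49 (0.669), and 0.430 at stage 46. Much of their stage 49 difference came from prph.L, given below. In these 5 lists the groups did not overlap at either stage, as was so for 12 of all 35 lists. Taking stage 49 by itself, whatever stage 46 showed, the groups did not overlap in 25 of the 35. For the 5 lists the exact two-sided permutation p was 0.333 at stage 49 and 0.1 at stage 46, in each case the smallest that 2 against 2 or 3 against 3 libraries allow. Whether these ratios differed between the stages was not tested. The median log2 fold change over cartilage genes was -0.14 and turned to 0.06 without SC49 replicate 1, and that over sensory neuron and ganglion genes was -0.16 and turned to 0.03. SC49 replicate 1 was also the library with the highest share of reads on midbrain-silent genes, whose part in these medians was not tested. For the summed levels, stage 49 log2 ratios of hindbrain over cord stayed negative whichever library was left out. They ran from -0.48 to -0.31 for cartilage and from -0.84 to -0.26 for ganglion genes.

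For muscle and red blood cell genes the regions overlapped at stage 49. Skeletal muscle genes summed to 1576 and 1557 CPM in HB49 against 1568 and 1823 CPM in SC49, which overlap (ratio 0.924, exact two-sided permutation p = 0.667). At stage 46 they had 1420, 2096 and 1611 CPM in HB46 against 2378, 3226 and 3513 CPM in SC46 (0.562). Red blood cell genes overlapped at stage 49, with 1766 and 1537 CPM in HB49 against 929 and 2077 CPM in SC49. At stage 46 they were higher in hindbrain in every library, at 2340, 1935 and 2141 CPM in HB46 against 779, 1255 and 931 CPM in SC46. Endothelium and pericyte genes had a ratio of 1.03 at stage 49, with 900 and 864 CPM in HB49 against 850 and 861 CPM in SC49. At stage 46 the pair of high-background libraries, HB46 and SC46 replicate 3, gave cord over hindbrain ratios of 6.79 for notochord, 4.86 for cartilage and 2.18 for muscle genes, against 6.61, 4.75 and 1.59 in replicates 1 and 2. The ratio was the smaller in that pair for epidermis (2.28 against 2.96), fibroblast and meninges (2.02 against 2.15) and ganglion genes (2.30 against 2.34).

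**Figure D3:**
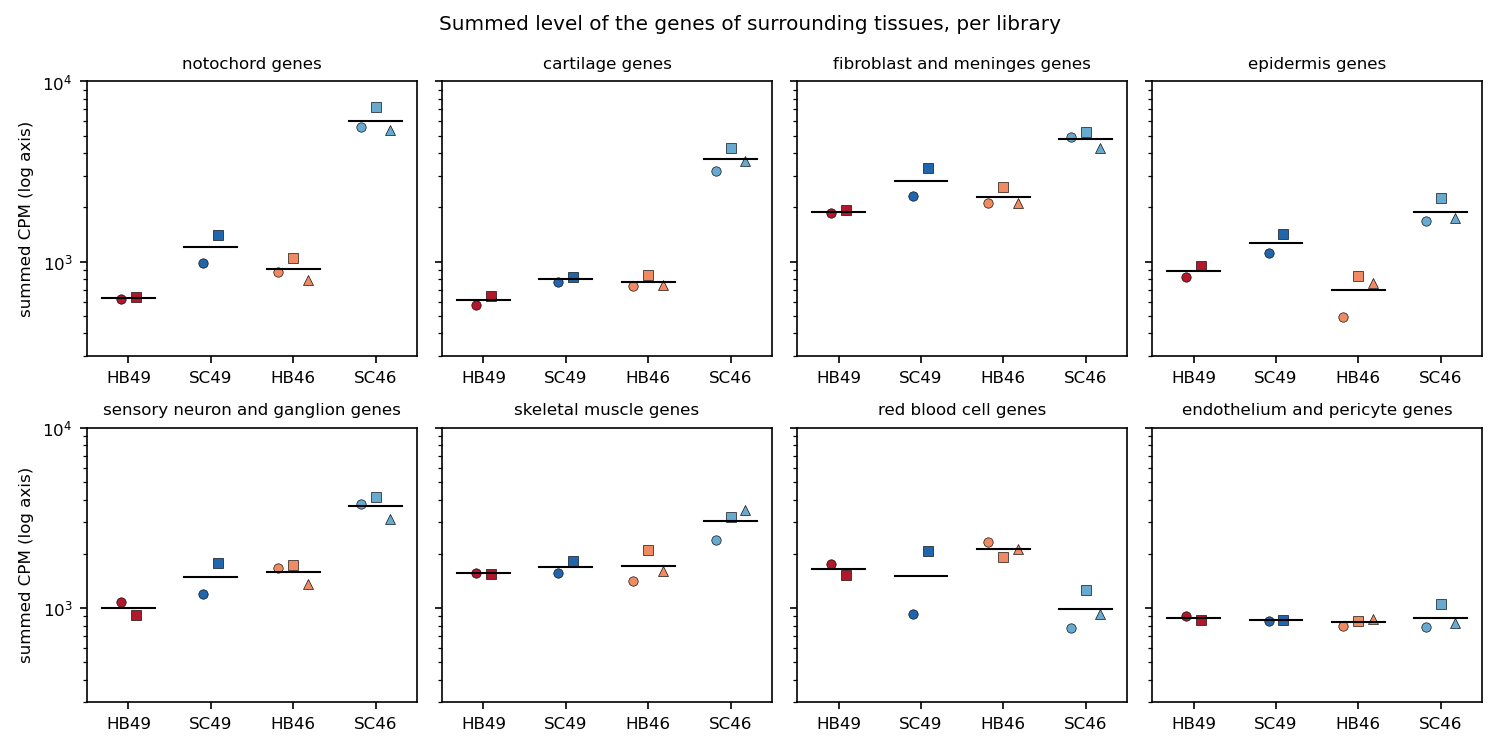
Summed CPM (log axis) of the genes of 8 tissues that surround or supply the brain and cord, in HB49, SC49, HB46 and SC46, with a point per library (circle, square and triangle for replicates 1, 2 and 3) and a bar at each group mean. Notochord genes stand at 983 and 1415 CPM in SC49, above the 624 and 635 CPM of HB49 and well under the 5362 to 7175 CPM of SC46; muscle genes overlap at stage 49.

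Gene by gene, some notochord, fibroblast and meninges, and epidermis genes were called, by larger shares than over all genes tested. Of 37 notochord genes tested, 3 were called lower in hindbrain (8.11%, against 0.0865% of all genes tested): krt8.L, krt8.S and krt18.L, keratins that notochord and simple epithelia share. krt8.L had 38.4 and 30.6 CPM in HB49, against 131 and 274 CPM in SC49 (log2 fold change -2.61, SE 0.61, edgeR adjusted p = 0.00973). krt18.L had 19.9 and 13.5 CPM in HB49, against 54.4 and 106 CPM in SC49 (-2.32, SE 0.43). Its other copy, krt18.S, was not called at stage 49 (-1.37). t.L, the brachyury gene that defines notochord, had 9.03 and 10.1 CPM in HB49 against 7.72 and 6.65 CPM in SC49, and was at 0 in HB46 replicates 1 and 2 and at 0.329 and 0.359 CPM in SC46 replicates 1 and 2. col2a1.L, the main collagen of cartilage and notochord sheath, had 56.8 and 53.2 CPM in HB49 against 95.2 and 171 CPM in SC49 (-1.33, SE 0.54, edgeR adjusted p = 0.710). Its levels at stage 46 were 125, 195 and 92.6 CPM in HB46 against 1602, 2093 and 1346 CPM in SC46 (-3.44, SE 0.36). The difference of its changes between the stages had a log2 value of 2.33 (SE 0.62) and did not pass the test (edgeR adjusted p = 0.390).

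Among 77 fibroblast and meninges genes tested, crabp2.L and serpinf1.L were called lower (2.60%), against 0.0865% of all genes tested. LOC108700362 (crabp2.S in RefSeq) is not in that list. serpinf1.L, a secreted serpin, had 19.2 and 12.46 CPM in HB49, against 47.0 and 126 CPM in SC49 (log2 fold change -2.51, SE 0.45). col1a1.L, a fibrillar collagen, had 31.6 and 38.7 CPM in HB49 against 66.2 and 122 CPM in SC49 (-1.47, SE 0.47, edgeR adjusted p = 0.228). Of 66 epidermis genes tested 1 was called lower (1.52%), krt5.7.L, a keratin. It had 9.78 and 14.1 CPM in HB49 against 36.4 and 74.0 CPM in SC49 (-2.26, SE 0.38). dsc3.S, a desmosomal cadherin, passed the adjusted p alone at 13.9 and 9.09 CPM in HB49 against 36.8 and 43.4 CPM in SC49 (-1.87, SE 0.36). The most abundant gene of the ganglion list, prph.L, the intermediate filament peripherin, had 308 and 241 CPM in HB49 against 416 and 896 CPM in SC49 (log2 fold change -1.31, SE 0.83), and 529, 582 and 397 CPM in HB46 against 1695, 1781 and 1443 CPM in SC46. It made up much of the list's sums at stage 49, which were 1082 and 920 CPM in HB49 against 1200 and 1791 CPM in SC49. Whether its reads came from ganglia or from the cord's own neurons was not tested. None of 40 cartilage, 99 skeletal muscle, 41 ganglion, 24 red blood cell, 50 endothelium, 30 microglia or 30 inner ear genes was called. Over all genes tested 0.127% were called. Fewer cells of a type and less of its RNA per cell cannot be told apart in dissected tissue.

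Most myelin genes had negative values at both stages. Of 36 tested at stage 49, 30 had negative values (median -0.51) and none was called, where 0.127% of all genes tested were called. At stage 46, 31 of 39 were negative (median -0.97) and 10 were called lower, against 1.01% of all genes tested. The summed level of the 41 genes in the file overlapped at stage 49, with 3677 and 3207 CPM in HB49 against 3609 and 6778 CPM in SC49 (exact two-sided permutation p = 0.667). At stage 46 it did not, with 1834, 1867 and 1324 CPM in HB46 against 5351, 5702 and 3653 CPM in SC46. The stage 49 median was -0.83 without SC49 replicate 1 and -0.30 without SC49 replicate 2. mbp.S, myelin basic protein, had 1142 and 1032 CPM in HB49 against 1305 and 2531 CPM in SC49 (log2 fold change -0.87, SE 1.04), and 242, 248 and 156 CPM in HB46 against 1193, 1104 and 789 CPM in SC46. mpz.S encodes a myelin protein of peripheral nerve in mammals, and the study proposes that it may serve central myelination in Xenopus. It had 10.5 and 60.3 CPM in HB49 against 82.0 and 132 CPM in SC49 (-1.64, SE 0.49, edgeR adjusted p = 0.150), and 8.04 CPM at most in any HB46 or SC46 library.

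Genes of cell division lay on opposite sides at the 2 stages, and nearly all by less than the fold of the call. Of 63 DNA replication genes tested at stage 49, 61 were negative (median -0.47), whereas 60 of 64 were positive at stage 46 (median 0.58). Cyclin and CDK genes behaved likewise, with 35 of 42 negative at stage 49 (median -0.36) and 35 of 40 positive at stage 46 (median 0.86). Of these genes 1 was called at stage 46, lower in hindbrain, where 1.01% of all genes tested were called in that direction. None was called at stage 49, where 0.127% of all genes tested were called. The 65 replication genes in the file summed to 1489 and 1446 CPM in HB49 against 1507 and 2490 CPM in SC49, and to 2443, 2782 and 1863 CPM in HB46 against 1726, 1909 and 1528 CPM in SC46. The stage 49 lean rested on SC49 replicate 2: without it 38 of 63 were negative and the median was -0.04, while without SC49 replicate 1 it was -0.71. The median of the cyclin and CDK genes was -0.15 without SC49 replicate 2. The most abundant member, mcm4.L, a subunit of the replicative helicase, had 61.3 and 53.5 CPM in HB49 against 62.5 and 143 CPM in SC49 (log2 fold change -0.89, SE 0.50), and 102, 137 and 80.1 CPM in HB46 against 67.2, 107 and 67.1 CPM in SC46. cdk1.L, the kinase that drives entry into mitosis, had 22.6 and 16.2 CPM in HB49 against 25.7 and 36.2 CPM in SC49 (log2 fold change -0.74), and 97.4, 80.0 and 60.5 CPM in HB46 against 38.5, 41.5 and 27.7 CPM in SC46 (1.30, SE 0.25). None of the 65 replication genes passed the test of the difference between the stages, where the lowest adjusted p was 0.351. In that test 62 of the 65 had negative values. An unadjusted p under 0.05 was reached by 16 of the 65, against 2354 of all 36879 genes tested.

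**Figure D4:**
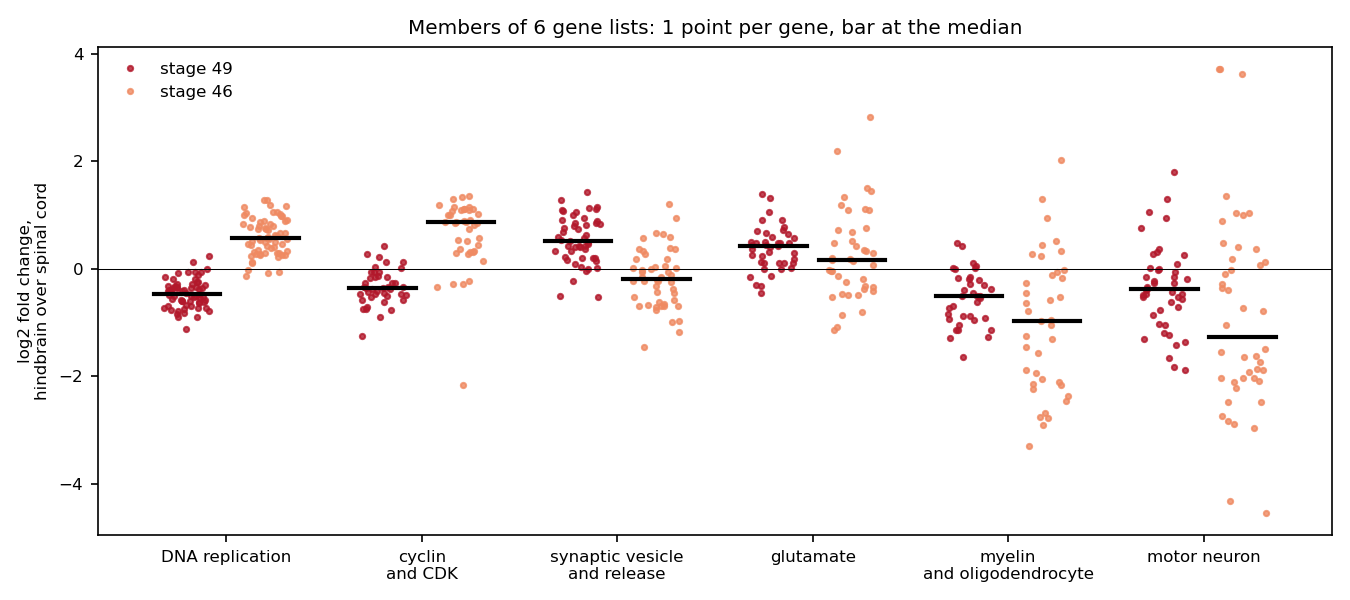
Log2 fold change of hindbrain over spinal cord (y axis) for the members of 6 gene lists at stage 49 and stage 46, 1 point per gene tested and a bar at each median. DNA replication genes have medians of -0.47 at stage 49 and 0.58 at stage 46, synaptic vesicle genes 0.51 and -0.19, and motor neuron genes -0.39 and -1.27.

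To ask which differences held, genes called at stage 46 were read in the stage 49 libraries, which had no part in choosing them. Of the 394, 376 were tested at stage 49, 351 of these had the same sign (93.4%), 64 also had an adjusted p under 0.05 and 37 were called (9.39% of the 394, against 0.127% of all genes tested). Their median log2 fold change, taken in the direction of stage 46, was 2.63 at stage 46, the value they were chosen on, and 0.87 at stage 49. Both directions held to a like extent, with 115 of 123 genes higher in hindbrain and 236 of 253 lower ones keeping their sign. In the other reading, all 41 genes called at stage 49 were tested at stage 46 with the same sign, 40 had an adjusted p under 0.05 and 37 were called (90.2%, against 1.49% of all genes tested). chrna4.L, marcksl1.L, krt18.L and pkd2l1.L were the 4 called at stage 49 alone. Of the 37 called at both, 27 had the smaller fold change at stage 49. The count of 37 was 4 without HB49 replicate 1 and 7 without HB49 replicate 2.

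Genes called in replicates 1 and 2 of stage 46 were also read in the libraries of high background. Of 790 genes called from replicates 1 and 2 of HB46 and SC46 alone, the median log2 ratio of CPM, with 1 added to each, was 2.60 in those libraries, 1.44 in the replicate 3 pair and 0.46 at stage 49. Since these genes were picked on replicates 1 and 2, their value there is a description. Its excess over the other values is no test of background, because the choice favours large values in those replicates. Of the 749 tested at stage 49, 655 had the same sign (87.4%) and 38 were called (4.81% of the 790, against 0.127% of all genes tested).

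**Figure D5:**
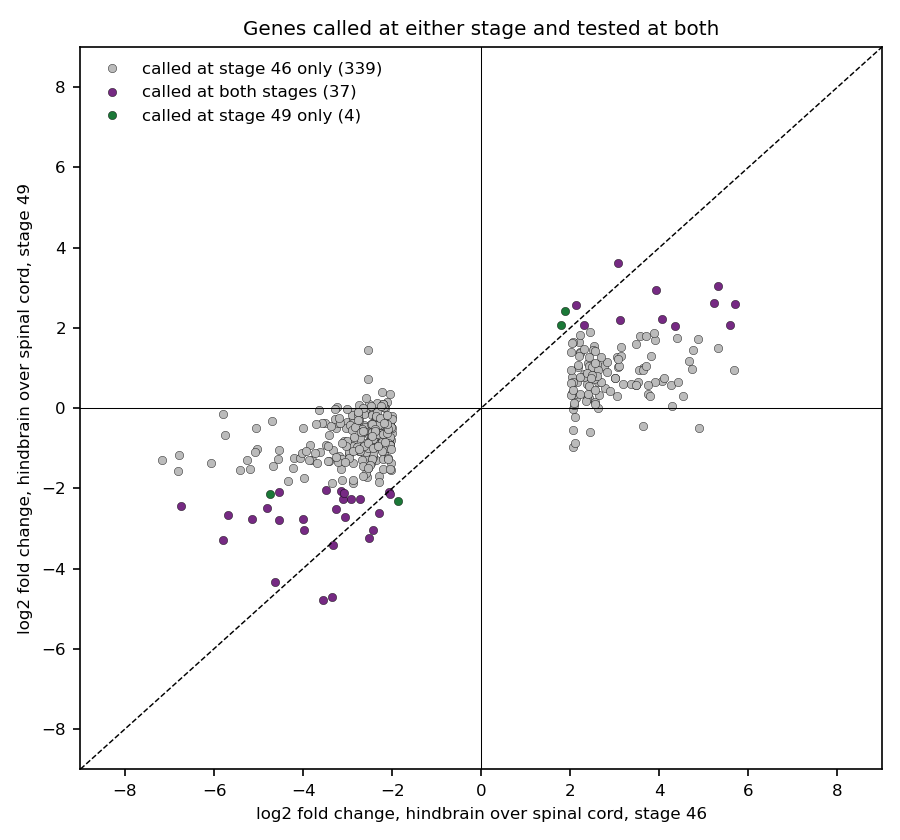
Log2 fold change of hindbrain over spinal cord at stage 46 (x axis) and stage 49 (y axis) for genes called at either stage and tested at both: 339 called at stage 46 only, 37 at both and 4 at stage 49 only. The dashed line marks equal values; nearly all genes lie in the 2 quadrants of the same sign. The 339 called at stage 46 only were chosen for a large value there and for not being called at stage 49, so their smaller stage 49 values are a description.

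A direct test of the difference between the stages called 1 of 36879 genes (0.00271%), with 2354 at an unadjusted p under 0.05. sds.L, serine dehydratase, had 30.9 and 23.9 CPM in HB49, against 11.03 and 8.25 CPM in SC49, a log2 fold change of 1.45 (SE 0.36). At stage 46 it stood the other way, with 7.02, 8.002 and 9.23 CPM in HB46 against 40.3, 74.3 and 45.0 CPM in SC46 (-2.55, SE 0.27). The groups overlapped at neither stage and the difference of the changes was 4.24 (SE 0.47, edgeR adjusted p = 0.0410). The count of genes depended on the model: it was 231 with the replicate number as a block within stage, 175 in DESeq2, 141 without HB46 replicate 3, 22 without SC46 replicate 3 and 0 without any one of the other 8 libraries. It was 446 without both replicates 3 of stage 46, and 35 where only those replicates stood for stage 46.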

How the data were processed

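RNA-seq libraries of dissected tadpole brain regions were compared, 2 of hindbrain and 2 of spinal cord at stage 49, beside 3 of each at stage 46, out of 30 samples. The authors deposited raw counts per gene. Per the submitters' processing notes the tools were STAR 2.5.2a, HTSeq 0.11.1 and DESeq2 1.22.2. The RNA was amplified before library preparation, and the handling of reads with several matches and of strand is not given in the sources used here. Samples were grouped by their labels.

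The counts were tested with edgeR 4.0.16 in R 4.3.3 (TMM scaling, quasi-likelihood, Benjamini-Hochberg adjustment), after filterByExpr (10 counts per library, 15 in total). Each stage was fitted on its own libraries, and the difference between stages on all 10. The SE given with a log2 value is its size divided by the square root of the test's F statistic. It restates that test and is not a separate estimate of error. At stage 49 the fit had 2 residual degrees of freedom and shared 1 spread across 32128 of 32382 genes. CPM values are TMM scaled unless called unscaled, and summed list levels were compared with exact two-sided permutation tests. Steps were tested on simulated data. Same-numbered libraries deviated together at stage 46 (r = 0.46, 0.46 and 0.82 over genes), which met the rule for pairs, but the difference of replicates 1 and 2 was unrelated between HB46 and SC46 (r = 0.0064). At stage 49 they did not (r = -0.21). The main fits and permutation tests carry no block. The genes named were the 8 called genes of smallest p in each direction with a gene symbol and groups that do not overlap, up to 3 called members of each of 35 lists or its most abundant member, the hox genes, and called genes of the stage difference. Results for a few of these genes and markers are not reported here. The members and lists were chosen with earlier results of these data known. RefSeq supplied names only. Alternatives covered DESeq2 1.42.0, RLE scaling, count filters, thresholds, thinned counts, shared fits, replicate blocks and leaving out each library. Comparisons with the remaining groups were left out.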

Additional observations from a re-analysis of the deposited data

Results flagged for a closer look

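The hindbrain over spinal cord change of sds.L, serine dehydratase, differed between the stages by a test of the difference itself, with a log2 value of 4.24 (SE 0.47, edgeR adjusted p = 0.0410). Both HB49 libraries were above both SC49 libraries, and all 3 HB46 libraries were below all 3 SC46 libraries. Over 20 alternatives its value lay between 3.79 and 4.73 and its adjusted p between 7.94e-14 and 0.284, and it was called in 11. It was not called without any one of the stage 49 libraries or of replicates 1 and 2 of HB46 and SC46, nor with all 30 samples in one fit. Its cause was not tested.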

How the results depend on the processing

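Of the 41 genes called at stage 49, none turned its direction in 15 alternatives. The count was 109 with a log2 threshold of 1 or the adjusted p alone, 25 with a minimum count of 50, 20 with all 30 samples in one fit, 4 with the 8 stage 49 samples or with the 10 hindbrain and cord samples in one fit, and 4 to 91 leaving out 1 library. The stage 46 count of 394 was 1343 with a threshold of 1, 1443 by the adjusted p alone, 790 without both replicates 3, and 294 to 801 leaving out 1 library. The count of 1 for the difference between stages was 175 and 170 in DESeq2 with and without the filter, 5 with RLE scaling, 6 with no filter, 64 with a minimum count of 50, 16 with thinned counts, 38 with all 30 samples, 231 with the replicate block within stage, 35 with only replicates 3 for stage 46, 446 without both replicates 3, and 0 to 141 leaving out 1 library. The 37 stage 46 genes that held at stage 49 were 91 with a threshold of 1 or by the adjusted p alone, 24 in DESeq2 without a filter, 20 with a minimum count of 50, 15 with all 30 samples, 4 in either shared fit, and 4 to 46 leaving out 1 library. At stage 49 the replicate block called 30 genes and the crossed pairing, chosen after seeing the data, 38. At stage 46 the block called 528. The causes were not tested.

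As log2 ratios of hindbrain over cord, summed levels at stage 49 and then stage 46, leaving out 1 library, ran from -0.22 to -0.00068 and -1.003 to -0.71 for muscle, -1.17 to -0.64 and -2.85 to -2.59 for notochord, -0.48 to -0.31 and -2.35 to -2.14 for cartilage, -0.81 to -0.29 and -1.19 to -1.01 for fibroblast and meninges, -0.68 to -0.33 and -1.59 to -1.25 for epidermis, -0.33 to 0.83 and 0.97 to 1.32 for red blood cell, 0.015 to 0.073 and -0.17 to 0.055 for endothelium and pericyte, -0.16 to 0.23 and -0.82 to -0.49 for inner ear, and -0.84 to -0.26 and -1.33 to -1.12 for ganglion genes. Without SC49 replicate 1 the red blood cell value reversed to -0.33, without SC49 replicate 2 the inner ear value to -0.158, and without SC46 replicate 2 the endothelium value to 0.055. Without TMM scaling endothelium was -0.056 at stage 49 and 0.116 at stage 46, and inner ear -0.106 at stage 49. With counts thinned to the smallest library, 37 genes were called at stage 49 and 407 at stage 46.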
